A study of Homo sapiens with 7 samples.

Results

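MTRNR2L1, MTRNR2L2 and MTRNR2L8 are nuclear loci of a family of 13 genes that resemble the large ribosomal RNA gene of the mitochondrial genome. These 3 genes are listed as pseudogenes in RefSeq (GRCh38.p14). The sites described here are those of the deposited site table whose centre lies within 10 kb of the hg19 intervals of these loci. There were 3 such sites among 5782, with 1 at each locus. The loci had been picked because their counts were higher after dTAG47 in these same libraries, so their differences from DMSO are given as descriptions, with no test.

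The libraries came from Rh4, an established rhabdomyosarcoma cell line, in which the PAX3-FOXO1 fusion is fused to an FKBP degron and carries an HA tag, and were made by CUT&RUN with an antibody against HA. The groups used here were crosslinked cells given 500 nM dTAG47 for 2 h, crosslinked cells given 500 nM dTAG47 for 4 h, and crosslinked cells given DMSO, with 2 libraries each. All groups share the tagged fusion, the crosslinking and the HA antibody, and the labels do not say whether the line is a single clone or whether the libraries came from separate cultures. A library of DMSO cells without crosslinking was not analysed here. The site table measures no expression, so the cell line label could not be checked against marker genes.

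Nuclear copies of mitochondrial DNA arose when fragments of the mitochondrial genome were inserted into chromosomes. The MTRNR2L genes are such copies and are also called humanin-like, after a short peptide read from the mitochondrial ribosomal RNA gene. Because such copies stay close in sequence to their source, short reads from the many mitochondrial genomes of a cell can be placed on them by an aligner. dTAG47 joins the FKBP degron to a ubiquitin ligase and so leads to degradation of the tagged protein. The site table covers 24 chromosomes and holds 0 sites on the mitochondrial chromosome. Mitochondrial reads were not analysed here, and their part in the values below was not tested.

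Reads in all sites ranged from 110440 to 380057 per library, and the median site held between 12 and 48 reads in a library. Over 5575 tested sites the counts of the 4 h columns differed by no more than the sampling noise, with a chi-square of 1.01 per degree of freedom, against 1.96 for the 2 h pair and 2.09 for the DMSO pair. They were therefore counted as 1 sample for n and for means, and both columns are shown. The fits kept them as separate libraries and estimated the spread over all libraries together. The standard errors and calls at 2 h as well as at 4 h therefore rest on that unless stated otherwise.

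The MTRNR2L1 site lay at chr17:22020629-22021029 (hg19), before the start of the MTRNR2L1 interval at chr17:22022437-22023991, with its centre 1608 bases from it. The MTRNR2L2 site lay at chr5:79947928-79948328, after the end of the MTRNR2L2 interval at chr5:79945819-79946855, with its centre 1273 bases away. The MTRNR2L8 site at chr11:10529312-10529712 overlapped the MTRNR2L8 interval, chr11:10529434-10530723, by 279 bases. Only this site of the 3 thus touched the interval of its gene.

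The MTRNR2L1 site held 384 and 174 reads after 2 h, 404 and 330 after 4 h, and 140 and 204 with DMSO, each time for column A and then column B. Both 4 h columns lay above both DMSO libraries in raw reads, whereas the 2 h library B lay between the DMSO libraries. It was the strongest of the 3 sites in every library. By read count it ranked 17 and 27 of 5782 sites in the 2 h libraries and 12 and 18 in the 4 h columns, against 97 and 161 in the DMSO libraries.

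The MTRNR2L2 site held 85 and 47 reads after 2 h, 74 and 56 after 4 h, and 30 and 39 with DMSO. Each of the 4 treated columns was above both DMSO libraries, although the 2 h library B had the fewest reads in sites of all libraries. This site ranked 413 and 255 after 2 h and 222 and 410 after 4 h, against 2568 and 3542 with DMSO.

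The MTRNR2L8 site held 75 and 24 reads after 2 h, 48 and 41 after 4 h, and 20 and 29 with DMSO. The 4 h columns did not overlap the DMSO libraries, but the 2 h library B again lay between them. Its rank was 516 and 914 after 2 h and 492 and 713 after 4 h, against 4211 and 4471 with DMSO, where it was below the middle of the table. In raw reads, both columns lay above both DMSO libraries at 3 of the 3 sites at 4 h, where 0.807% of the 5575 tested sites did so, and at 1 of the 3 sites at 2 h, where 0.413% did. These shares are given for scale only, since this contrast chose the loci.

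**Figure D1:**
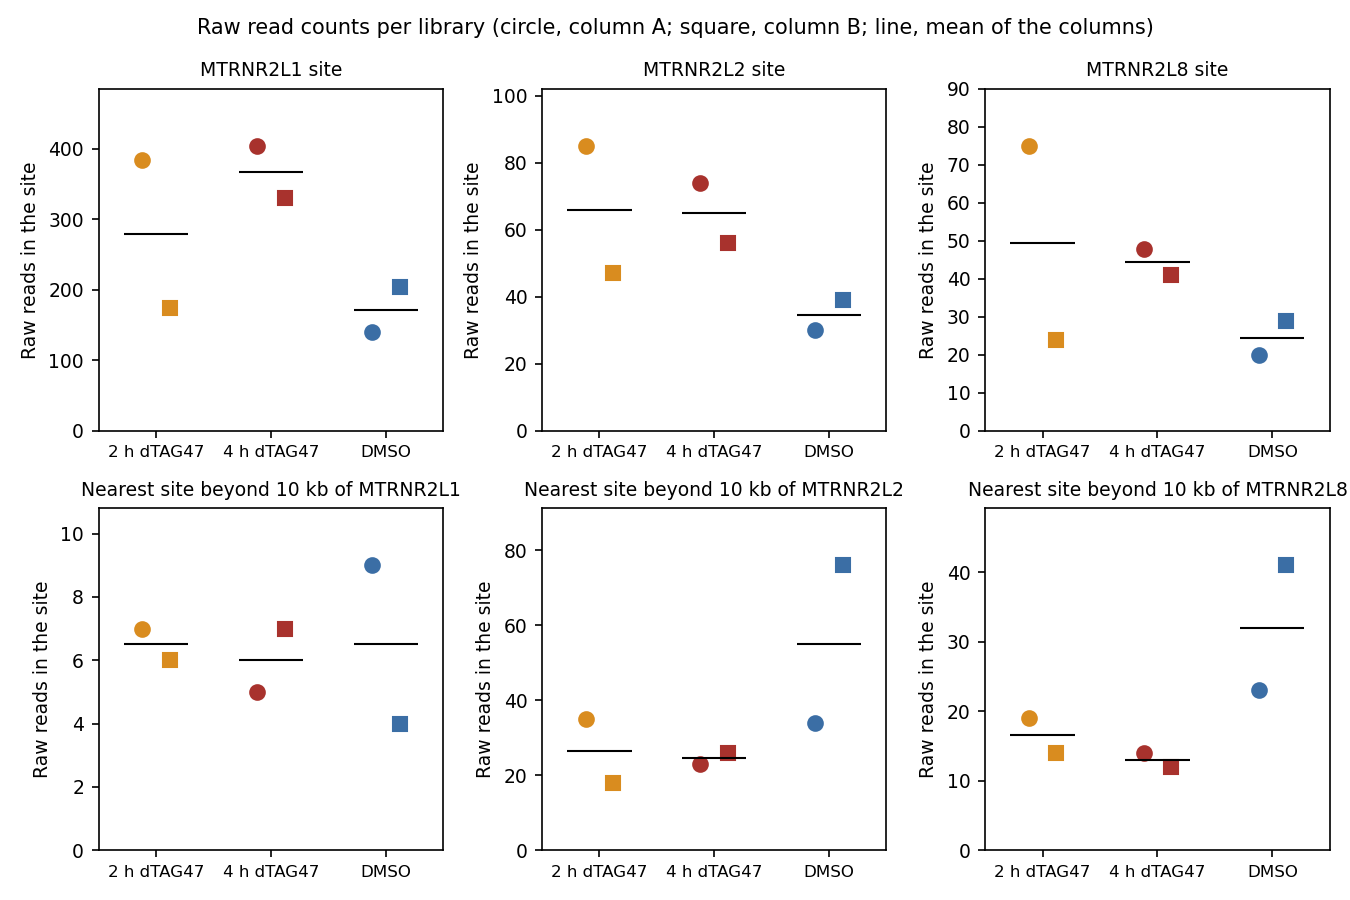
Raw reads per library (vertical axis, from 0) for 2 h dTAG47, 4 h dTAG47 and DMSO at the 3 MTRNR2L sites (top) and at the nearest site beyond 10 kb of each locus (bottom); circles are column A, squares column B and lines the mean of the columns. All 4 h columns lie above the DMSO libraries in the top row, with 330 to 404 reads at MTRNR2L1 against 140 to 204, and below them at the neighbours of MTRNR2L2 and MTRNR2L8.

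As a share of each library, the separation was complete at all 3 sites. Shares are given as reads at the site per 100000 reads in all sites of that library, which removes differences in the number of reads between libraries but rises at a given site when the other sites lose reads. The MTRNR2L1 site held 163 ± 7.53 reads per 100000 after 2 h (SD, n = 2), 239 after 4 h (n = 1, mean of both columns) and 57.8 ± 5.84 with DMSO (SD, n = 2). The MTRNR2L2 site held 39.9 ± 3.77 after 2 h (SD, n = 2), 42.3 after 4 h (n = 1) and 11.8 ± 2.13 with DMSO (SD, n = 2).

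The MTRNR2L8 site held 27.3 ± 7.86 per 100000 after 2 h (SD, n = 2), 28.9 after 4 h (n = 1) and 8.24 ± 0.86 with DMSO (SD, n = 2). The lowest treated share was above the highest DMSO share by a factor of 2.46 to 2.81 at 2 h and 2.69 to 3.40 at 4 h over the 3 sites. Both columns lay above both DMSO libraries in share at 3 of the 3 sites at each time, where 15.3% of tested sites did so at 2 h and 19% at 4 h.

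Pooled over the 3 sites, there were 238 reads per 100000 (Wilson 95% interval 219 to 259) in the 2 h library A and 222 (196 to 251) in the 2 h library B. The 4 h column A held 348 (319 to 378) and column B 272 (248 to 299). The DMSO libraries held 84.0 (72.9 to 96.9) in A and 71.6 (63.6 to 80.6) in B. No interval of a treated library reached that of a DMSO library, which repeats the contrast that chose the loci and is given as a description. The intervals of the 4 h columns A and B did not overlap each other either. The intervals cover counting error only, since reads are not independent molecules where copies made by PCR were kept.

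The mean pooled share was 2.96 times that of DMSO at 2 h (log2 1.56) and 3.98 times at 4 h (log2 1.99). In mean raw reads the factors were smaller, 1.71 at 2 h and 2.06 at 4 h, while the mean number of reads in all sites was 0.559 times that of DMSO at 2 h and 0.508 times at 4 h. The higher share thus came together with fewer reads elsewhere, and also with more raw reads at the sites themselves. Raw reads also depend on how deeply a library was sequenced. Total sequenced reads were not analysed here, and their part in these factors was not tested. At 2 h the greater number of reads at the sites rested on the library A, with 544 pooled reads, since the library B held 245, between the 190 and 272 of the DMSO pair.

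**Figure D2:**
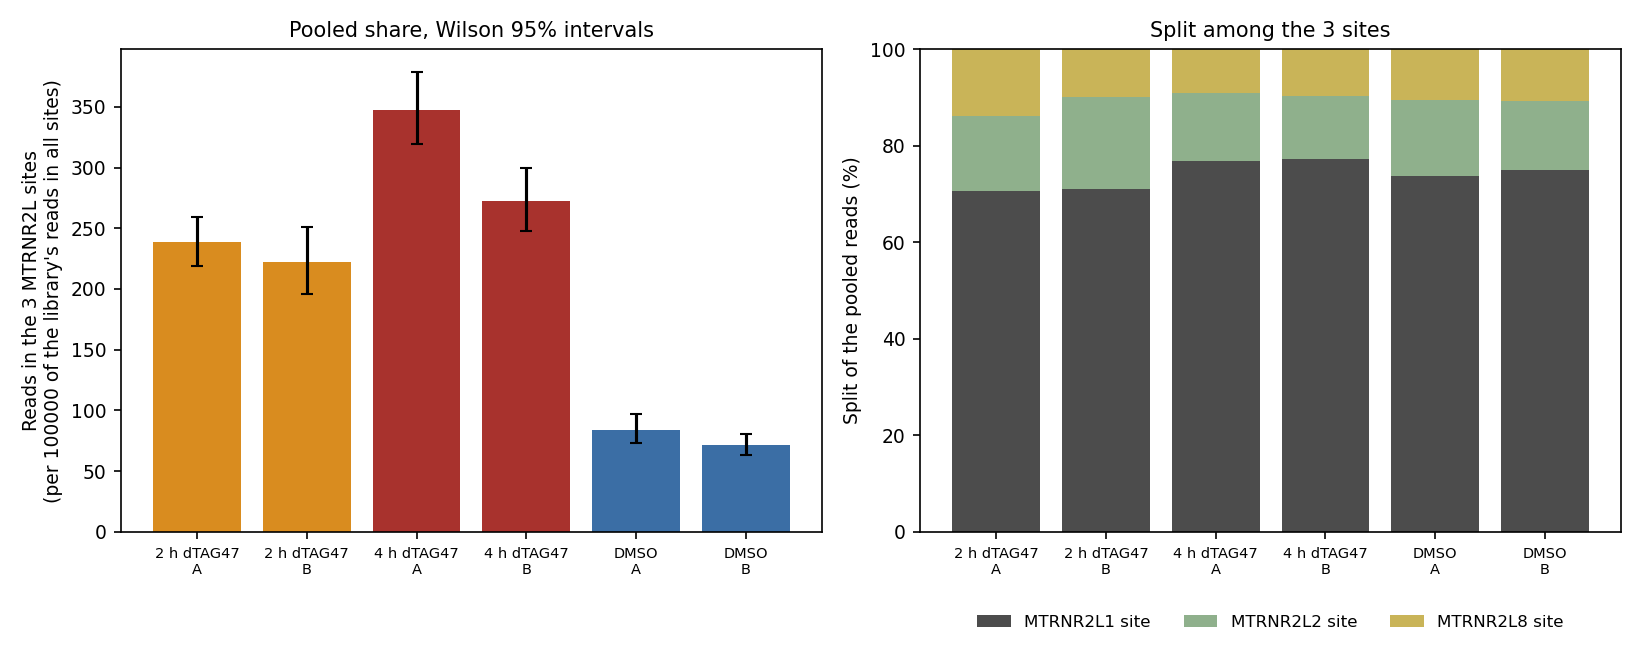
Left, reads in the 3 MTRNR2L sites per 100000 reads in all sites of a library, with Wilson 95% intervals as bars; right, the split of those reads among the 3 sites in percent; columns are single libraries of 2 h dTAG47, 4 h dTAG47 and DMSO. The pooled share lies between 222 and 348 in treated libraries and between 71.6 and 84.0 with DMSO, and the split stays similar, with 70.6% to 77.3% of the reads at MTRNR2L1.

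The 3 sites kept similar proportions to each other in every library. The MTRNR2L1 site held 70.6% and 71.0% of the pooled reads in the 2 h libraries, 76.8% and 77.3% in the 4 h columns, and 73.7% and 75.0% in the DMSO libraries. The MTRNR2L2 site held 15.6% and 19.2% after 2 h, 14.1% and 13.1% after 4 h, and 15.8% and 14.3% with DMSO. The MTRNR2L8 site held 13.8% and 9.80% after 2 h, 9.13% and 9.60% after 4 h, and 10.5% and 10.7% with DMSO.

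This split is a measure within a library and does not depend on scaling. Its spread over the 6 libraries was near that of counting error, with a chi-square per degree of freedom of 1.35. The 4 h columns entered this value as separate libraries. All 3 loci were picked for higher counts after dTAG47 in these libraries, which favours a like split in treated and DMSO libraries. The value is therefore a description. The Wilson intervals of the MTRNR2L1 percentage all overlapped, from 66.6% to 74.3% around the lowest value, in the 2 h library A, to 73.1% to 81.0% around the highest, in the 4 h column B. The loci lie on 3 chromosomes. Whether their reads have 1 source was not tested.

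In a fit of all tested sites with TMM scaling, which sets each site against the typical one, the MTRNR2L1 site had a relative log2 change of 1.62 (SE 0.271) at 2 h and 2.18 (SE 0.272) at 4 h against DMSO. The MTRNR2L2 site had 1.88 (SE 0.238) at 2 h and 2.01 (SE 0.237) at 4 h. The MTRNR2L8 site had 1.93 (SE 0.254) at 2 h and 1.96 (SE 0.259) at 4 h. Both comparisons share the DMSO libraries.

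From the highest change downward, these sites ranked 15, 7 and 4 of 5575 at 2 h and 5, 18 and 20 at 4 h, in the order MTRNR2L1, MTRNR2L2, MTRNR2L8. The median over the 3 sites was 1.88 at 2 h and 2.01 at 4 h, against 0.01 and 0.02 over all tested sites. Scaling on the 20 sites of highest mean count in place of TMM gave a median over the 3 sites of 1.01 at 2 h and 0.98 at 4 h. All 3 were called as higher at each time (edgeR quasi-likelihood test), as were 2.49% of tested sites at 2 h and 4.72% at 4 h. With the 4 h columns as 1 library, the standard errors at 4 h were 0.35, 0.26 and 0.277 in the same order of sites, and all 3 were again called as higher, as were 2.71% of tested sites. The loci were proposed from these calls, which are therefore not a result about them.

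The unscaled fit of raw counts gave positive log2 changes too, with a wider error. They ranged from 0.70 to 1.01 over the 3 sites at 2 h and from 0.86 to 1.09 at 4 h, with standard errors of 0.427 to 0.771. In this fit none of the 3 sites was called at 2 h or at 4 h (edgeR quasi-likelihood test). The share of all tested sites called in the unscaled fit is not given here, so the lack of calls is not a result about these sites. Of the 5575 tested sites, 1042 at 2 h and 1569 at 4 h had an unadjusted p under 0.05 in either direction. The median of all tested sites was −0.93 at 2 h and −1.08 at 4 h, and 2.22% and 2.10% of tested sites had a positive value. Without the 2 h library A, the median of the 3 sites at 2 h was 0.017, against 0.93 with it.

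**Figure D3:**
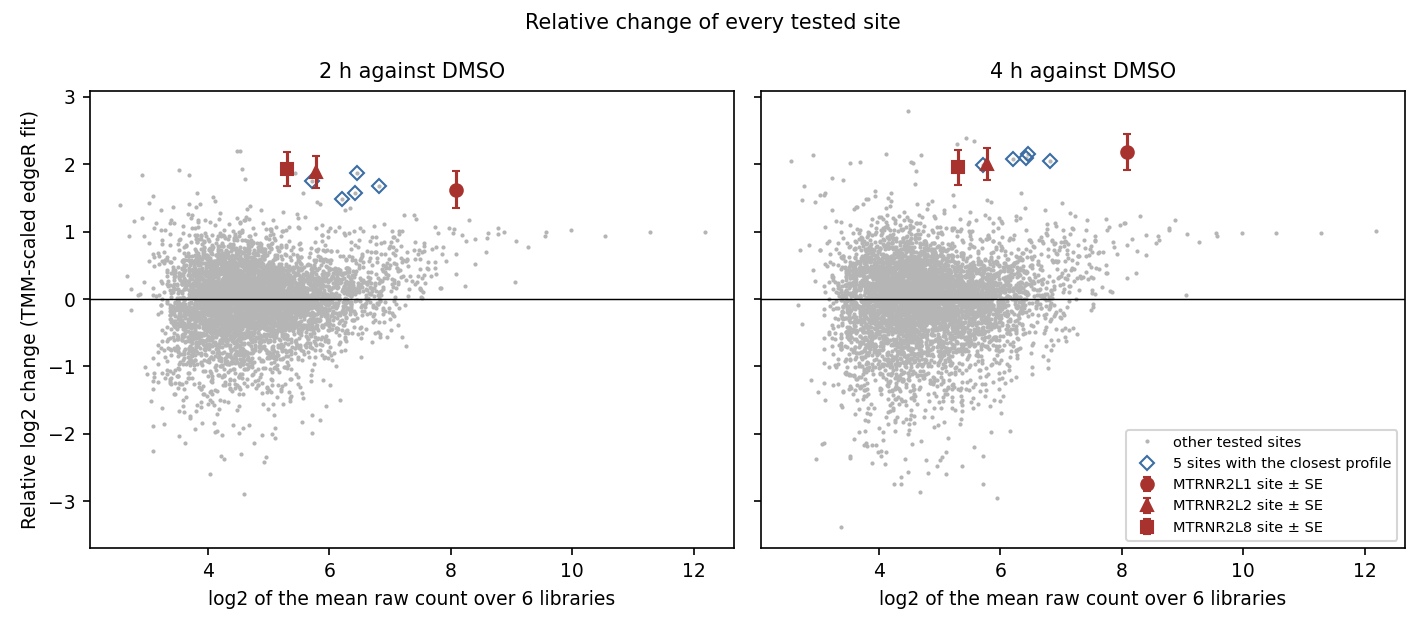
Relative log2 change from the TMM-scaled fit (vertical axis) against the log2 mean raw count over 6 libraries (horizontal axis) for 2 h against DMSO (left) and 4 h against DMSO (right); grey points are other tested sites, red symbols the 3 MTRNR2L sites with their standard errors, and blue diamonds the 5 sites with the closest profile. The MTRNR2L sites lie between 1.62 and 2.18, above most sites of a like count.

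The times were compared to see whether the share went on changing. The relative log2 change of 4 h against 2 h was 0.56 (SE 0.261, edgeR adjusted p = 0.843) at the MTRNR2L1 site, 0.12 (SE 0.215, edgeR adjusted p = 0.998) at the MTRNR2L2 site and 0.03 (SE 0.228, edgeR adjusted p = 0.999) at the MTRNR2L8 site. None passed the threshold, and 0 of 5575 sites (0%) were called by edgeR, with 321 at an unadjusted p under 0.05, or by DESeq2, with 33. With the 4 h columns as 1 library, edgeR also called 0 sites (259 at an unadjusted p under 0.05). The edgeR adjusted p of each of the 3 was then 0.99987. The MTRNR2L1 site held 267 and 210 reads per 100000 in the 4 h columns, against 168 and 158 in the 2 h libraries. How many of all tested sites had such an order of columns was not computed, and the difference was not called. At the other 2 sites the columns of the times overlapped. Without the 4 h column A the median of the 3 sites was −0.12, against 0.12 with it.

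Within the 4 h pair, the MTRNR2L1 site held 267 reads per 100000 in column A (Wilson interval 242 to 294) and 210 in column B (189 to 234), a ratio of 1.27, and the intervals did not overlap. The ratio of column A to column B was 1.37 at MTRNR2L2 and 1.21 at MTRNR2L8. How many of all tested sites had more in column A was not computed. None differed after adjustment over all 5575 sites (Fisher's exact test, two-sided, adjusted p = 0.933 at MTRNR2L1 and 1 at the others). Before adjustment, Fisher's exact test gave p = 0.0013 at MTRNR2L1, 0.079 at MTRNR2L2 and 0.397 at MTRNR2L8 in the 4 h pair. By the same test, 4.47% of tested sites had an unadjusted p under 0.05 in the 4 h pair, and 0 sites differed after adjustment. In the 2 h pair the ratio of library A to B was 1.07, 0.875 and 1.51 at MTRNR2L1, MTRNR2L2 and MTRNR2L8, and in the DMSO pair it was 1.15, 1.29 and 1.16.

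Each site was also set against its nearest neighbour, which uses that neighbour as the scale. These ratios repeat the contrast with DMSO that chose the loci and are given as descriptions. The nearest site outside the window of MTRNR2L2, chr5:79919621-79920021, was 25998 bases from the interval and held 35 and 18 reads after 2 h, 23 and 26 after 4 h, and 34 and 76 with DMSO. The MTRNR2L2 site held 2.43 and 2.61 times the reads of this neighbour after 2 h and 3.22 and 2.15 times after 4 h, against 0.882 and 0.513 times with DMSO. It thus held more reads than its neighbour in all 4 treated columns and in neither DMSO library. Mean reads at the neighbour were 0.482 times those of DMSO at 2 h and 0.445 times at 4 h. For all sites together these factors were 0.559 and 0.508.

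The nearest site outside the window of MTRNR2L8, chr11:10373433-10373833, was 155801 bases away and held 19 and 14 reads after 2 h, 14 and 12 after 4 h, and 23 and 41 with DMSO. The MTRNR2L8 site held 3.95 and 1.71 times its reads after 2 h and 3.43 and 3.42 times after 4 h, against 0.870 and 0.707 times with DMSO. The relative log2 change of the neighbour was −0.01 (SE 0.309) at 2 h and −0.19 (SE 0.332) at 4 h, and that of the MTRNR2L2 neighbour −0.09 (SE 0.246) and −0.05 (SE 0.25). At MTRNR2L1 the nearest site outside, chr17:21906568-21906968, was 115669 bases away and held 4 to 9 reads in every library, too few to be tested.

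The sites whose profile over the 6 libraries was closest to that of the pooled MTRNR2L sites lay on other chromosomes or far from the loci. Likeness was the Euclidean distance between log2 shares centred on each site's own mean, over 5507 other sites with a mean count of at least 10, for which the median distance was 2.33. The closest was chr2:88124447-88124847, at a distance of 0.269, with 121 and 55 reads after 2 h, 133 and 92 after 4 h, and 42 and 72 with DMSO. Next came chr5:93906389-93906789 at 0.315, with 152 and 88 reads after 2 h, 167 and 119 after 4 h, and 59 and 89 with DMSO. The third was chr14:32953653-32954053 at 0.341, with 133 and 67 reads after 2 h, 112 and 106 after 4 h, and 39 and 67 with DMSO. These sites share the pattern of more reads in both 4 h columns than in either DMSO library.

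After these came chr4:12641892-12642292 at a distance of 0.370 and chrX:125606513-125606913 at 0.391. The chr4 site held 99 and 46 reads after 2 h, 97 and 100 after 4 h, and 37 and 63 with DMSO. The chrX site held 79 and 41 reads after 2 h, 73 and 54 after 4 h, and 32 and 36 with DMSO. The MTRNR2L2 and MTRNR2L8 sites lay 0.428 and 0.465 from the pooled profile, which follows mostly the MTRNR2L1 site at 0.124, so 6 and 7 of the other sites were closer to it than they were. The likeness was picked from the same libraries and describes them. The files pair none of these sites with a gene.

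**Figure D4:**
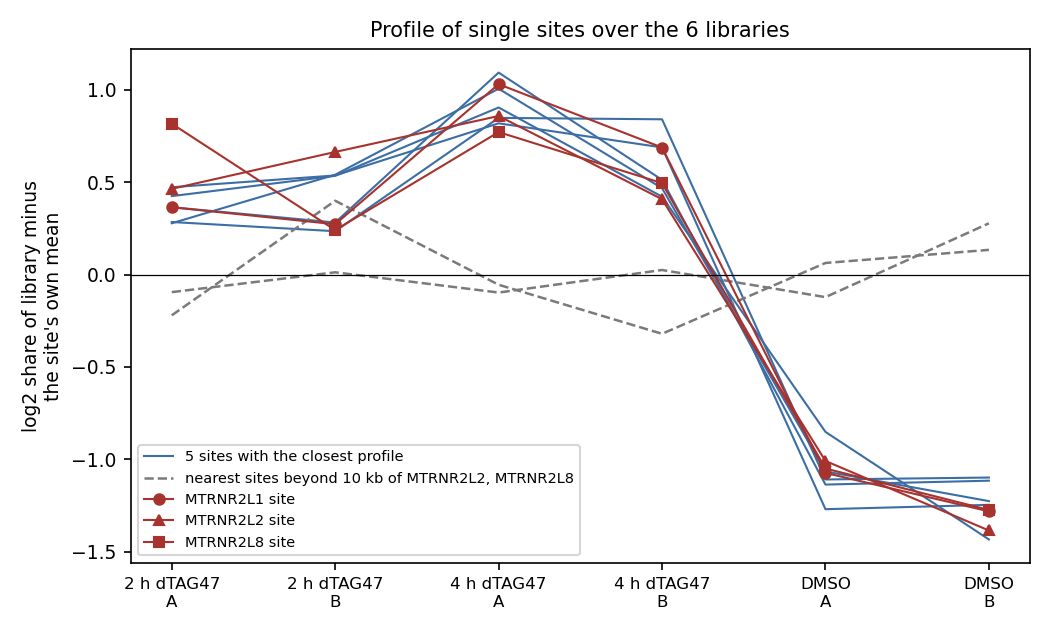
Log2 share of the library minus the site's own mean (vertical axis) over the 2 h dTAG47, 4 h dTAG47 and DMSO libraries A and B (horizontal axis); red lines are the 3 MTRNR2L sites, blue lines the 5 sites with the closest profile and dashed grey lines the nearest sites beyond 10 kb of MTRNR2L2 and MTRNR2L8. Red and blue lines lie above 0 in every treated library and below 0 in both DMSO libraries, while the dashed lines have values on both sides of 0 among the treated libraries.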

How the data were processed

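The deposited file holds the raw read count of each site, as the authors counted it, with no normalization; each site ends 400 bases after its start. The build hg19 and the tools deepTools, DESeq2, DiffBind, Genrich 0.6.1, Bowtie2 and Trimmomatic 0.32 are named in the submitters' processing notes. Their roles, how sites were chosen, and how duplicate reads or reads matching several places were treated is not given in the sources used here; the last of these sets how many reads a copied sequence receives. The file does not say whether its starts are counted from 0 or from 1, and positions may be off by 1 base. There were 6 count columns and 0 others. A column is named by its treatment and a letter; of the DMSO groups only the crosslinked one has 2 samples, and the pair of DMSO columns was assigned to it. Because no separate cultures are stated, p-values measure only the spread between libraries, which may be technical.

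Sites were kept by filterByExpr (minimum count 10, minimum total 15), leaving 5575 of 5782, all 3 MTRNR2L sites among them. Counts of the 6 columns were fitted with edgeR 4.0.16 (R 4.3.3, quasi-likelihood test, treatment as the only term, Benjamini-Hochberg over all tested sites, threshold 0.05), with TMM scaling or with none. The standard error was the log2 change over the square root of F. Named sites were those in the window, the nearest outside it, and the 5 of closest profile (0.5 added to counts). The loci and the measures were chosen with earlier results of these data known. Gene types came from RefSeq (GRCh38.p14), and no coordinates were taken from it. The other 10 MTRNR2L genes and the sequences of the sites were not analysed here.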

Additional observations from a re-analysis of the deposited data

How the results depend on the processing

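Values are log2 changes over the 3 MTRNR2L sites, as a median of fitted changes or as the ratio of mean pooled shares. Of 80 alternative values, 61 moved by less than the spread between replicates (1 SD) and 19 by more. This SD was 0.631 for the unscaled changes and 0.127 for all other values, so the unscaled ones were held to a looser limit. It was taken from the log2 pooled counts or shares of the DMSO and 2 h pairs. The 4 h columns did not enter it, so the limit does not cover their spread. Windows of 5 and 20 kb held the same 3 sites, so their values could not move and are counted among the 61. All 39 site values at 2 h and all 42 at 4 h against DMSO were positive in the scaled fits run, from 0.76 to 2.09 and from 0.93 to 2.34, which the choice of the loci favours. Of 15 unscaled values at 2 h, 14 were positive, and the MTRNR2L8 site had −0.030 without the 2 h library A; all 15 at 4 h were positive. Scaled on the 20 sites with the highest mean count, none of them an MTRNR2L site, the median relative change was 1.01 at 2 h, 0.98 at 4 h and −0.021 for 4 h against 2 h; scaled on totals in sites it was 1.87 at 4 h. Leaving the MTRNR2L1 site out of the pooled share gave 1.75 at 2 h and 1.83 at 4 h. The cause was not tested.

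Leaving out 1 library gave a median relative change of 1.63 to 2.02 at 2 h, 1.81 to 2.22 at 4 h and −0.12 to 0.35 for 4 h against 2 h. The unscaled median was 0.017 to 1.30 at 2 h and 0.74 to 1.15 at 4 h, and the pooled share 1.45 to 1.68 at 2 h and 1.81 to 2.16 at 4 h. With the 4 h columns as 1 library, the median relative change was 1.997 at 4 h and 0.11 for 4 h against 2 h. A replicate block by column letter gave 1.83 at 2 h, 1.99 at 4 h and 0.13 for 4 h against 2 h, and the unscaled median was 0.87 at both times. Differences of A from B had correlations of −0.204 (DMSO and 2 h), 0.0127 (DMSO and 4 h) and −0.00748 (2 h and 4 h) over sites. DMSO and 2 h libraries of 1 letter thus tended to deviate in opposite directions. A block that pairs A of 1 group with B of another was not fitted. The 20 to 85 reads at the MTRNR2L2 and MTRNR2L8 sites limit precision there.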
